A study of Mus musculus with 8 samples.

Results

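Clustered protocadherins are cadherin-family adhesion molecules encoded by 3 neighbouring gene arrays. Their levels were followed through the polysomes of the mouse main olfactory epithelium, the tissue of the nose that holds the olfactory sensory neurons. Members were all rows of the polysome expression table whose symbol named an alpha, beta or gamma protocadherin with its number. This gave 58 of the 21765 genes listed. The alpha cluster held 14 of them, the beta cluster 22 and the gamma cluster 22. Grouped by subfamily there were 12 alpha members, 22 beta, 12 gamma A, 7 gamma B and 5 C-type members. The C-type members are Pcdhac1 and Pcdhac2 at the end of the alpha cluster and Pcdhgc3, Pcdhgc4 and Pcdhgc5 at the end of the gamma cluster. In the RefSeq annotation of GRCm38.p6, in which all 58 symbols were found, the arrays lie on chromosome 18. The alpha cluster spans 36930285 to 37188897, the beta cluster 37264998 to 37521419 and the gamma cluster 37661775 to 37841873.

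Each alpha and gamma isoform begins with a large variable exon that has a promoter of its own and encodes the extracellular cadherin repeats, the membrane span and the first part of the tail. This exon is spliced to constant exons shared by every isoform of the cluster, whereas beta genes have no constant exons. In neurons the alpha, beta, gamma A and gamma B promoters are chosen stochastically, so that neighbouring cells carry different sets of isoforms, and the C-type promoters are regulated differently. The choice involves DNA methylation and promoter-enhancer looping by CTCF and cohesin. The proteins bind like to like between membranes, which lets the branches of a neuron recognise and avoid each other, and olfactory sensory axons need them to form their glomeruli.

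Polysomes are mRNAs carrying several ribosomes, and in a sucrose gradient the heavier ones travel further. Tissue received 100 µg/mL cycloheximide, which stalls ribosomes on mRNA, at dissection. About 42 gradient fractions of 350 µL were taken, and 50 µL of each was pooled as early (lighter) polysomes, fractions 27 to 34, or late (heavier) polysomes, fractions 35 to 42. Wild-type (WT) animals had floxed Mex3a and no Cre, with the label allowing either 1 or 2 floxed alleles. Conditional knockouts (cKO) had 2 floxed Mex3a alleles and Cre, and the Cre line is not reported here. Mex3a encodes an RNA-binding protein. Thus floxed alleles and cycloheximide were common to all groups. WT early, WT late, cKO early and cKO late each held 2 libraries, and the early and late library of a number came from the same lysate, 4 lysates in all. Age, sex and the number of animals behind a lysate are not given in the labels. P-values therefore measure only the spread between these libraries, or between lysate averages where those were compared. The main fit took the 8 libraries as separate samples, without pairing early and late by lysate. For WT early replicate 2 the genotype tag reads cKO while the title reads WT. The title was followed. Mex3a in that library was at 116 TPM (transcripts per 1000000, a level corrected for gene length and library size), beside 93.2 to 97.4 in the other WT libraries and 11.1 to 19.8 in the cKO libraries. Without this library the count of members higher in late polysomes, averaged over the genotypes, was 35 in place of 41, and its other effects on counts stand beside the results.

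Libraries held 7776792 to 12771079 reads, as inferred from the steps of the TPM values. The members took 0.0370% to 0.0781% of them. The fewest member reads were 3803, in cKO early replicate 2, and the most were 9852, in WT late replicate 2. All 58 members were above 0 in every library. The lowest count was 2 reads, for Pcdha8, and the highest 2468, for Pcdhb1. Pcdha8, with a mean of 0.668 TPM and 2 to 12 reads, was the only member below the mean of 1 TPM required for testing. The lowest member tested was Pcdhb8, at 1.39 TPM.

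What each row counts could be read from the gene length that the TPM steps imply. For 29 of the 36 alpha and gamma members it was within 1 nt of the annotated variable exon or of its coding part, and for 21 of the 22 beta members within 1 nt of the whole gene. Pcdhb6 was the exception among the beta members, with 2319 nt. The constant exons stand in separate rows, PcdhaCon with 2860 nt and PcdhgCon with 2118 nt. Where lengths match in this way, member values come from the variable exon without the shared constant sequence. The variable exons resemble each other, and the authors' treatment of reads that match several places is not given in the sources used here. Of all 50-base stretches in an annotated variable exon, 76.6% to 90.0% were found in no other member for alpha, 88.0% to 100% for beta, 95.7% to 100% for gamma A, 82.1% to 97.3% for gamma B and 100% for the C-type members. Values of the alpha and gamma B members are the least certain for this reason. Pcdhgb8 is a transcribed pseudogene in RefSeq and a polymorphic pseudogene in GENCODE, which nonetheless gives it a coding sequence of 2793 nt.

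Pcdhb1, Pcdhgc3 and Pcdhac2 dominated the family. Together they made up 52.3% to 57.9% of the summed member TPM in each library. Pcdhb1, the first gene of the beta cluster and, as background, one of the few members whose promoter lacks the sequence element conserved in the others, had the highest mean level. In WT it stood at 87.6 and 73.5 TPM early and 216 and 230 late (replicates 1 and 2), and in cKO at 105 and 63.2 TPM early and 248 and 233 late. Every late library was above every early library, and the genotypes overlapped in early polysomes. In late polysomes both cKO libraries were above both WT libraries, a pattern found for 20.5% of all genes tested. Pcdhgc3, a C-type isoform with known roles of its own in dendrite growth, had 104 and 86.7 TPM early and 188 and 197 late in WT, and 101 and 80.4 early and 182 and 188 late in cKO. Pcdhac2, the C-type isoform needed in serotonergic axons, had 47.0 and 44.7 TPM early and 58.9 and 59.7 late in WT, and 42.9 and 38.4 early and 51.7 and 55.0 late in cKO. For these members too the late libraries were all above the early ones. In early polysomes the TPM of Pcdhb1 was 0.787 to 1.04 times that of Pcdhgc3, so these neighbours in the order were not separated. In late polysomes it was 1.15 to 1.36 times as high, in each of 4 libraries.

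The remaining 55 members lay far lower, at mean levels of 0.668 to 12.1 TPM, and 29 members were under 5 TPM. The most abundant of them were Pcdhb17 (12.1 TPM), Pcdhga7 (12.0), Pcdhgb6 (11.3), Pcdhga11 (10.6), Pcdha2 (9.26), Pcdhac1 (9.05), Pcdhb16 (8.55) and Pcdhgb7 (8.50). Pcdhb17 had 10.1 and 8.91 TPM early and 15.8 and 15.3 late in WT, and 9.45 and 7.18 early and 16.3 and 13.6 late in cKO. Its levels overlapped between genotypes in both fractions. The median member level was 5.42 TPM for alpha, 2.90 for beta without Pcdhb1, 5.20 for gamma A and 5.64 for gamma B, whose ranges overlapped widely. C-type members ranged from 1.78 TPM for Pcdhgc5 and 2.48 for Pcdhgc4 to 141 for Pcdhgc3, so they did not form a group of uniform level. Within the beta cluster, levels of the members other than Pcdhb1 tended to be higher toward the gamma cluster (Spearman's rho of level with order 0.62 across 21 genes, a description of genes that are not independent).

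**Figure D1:**
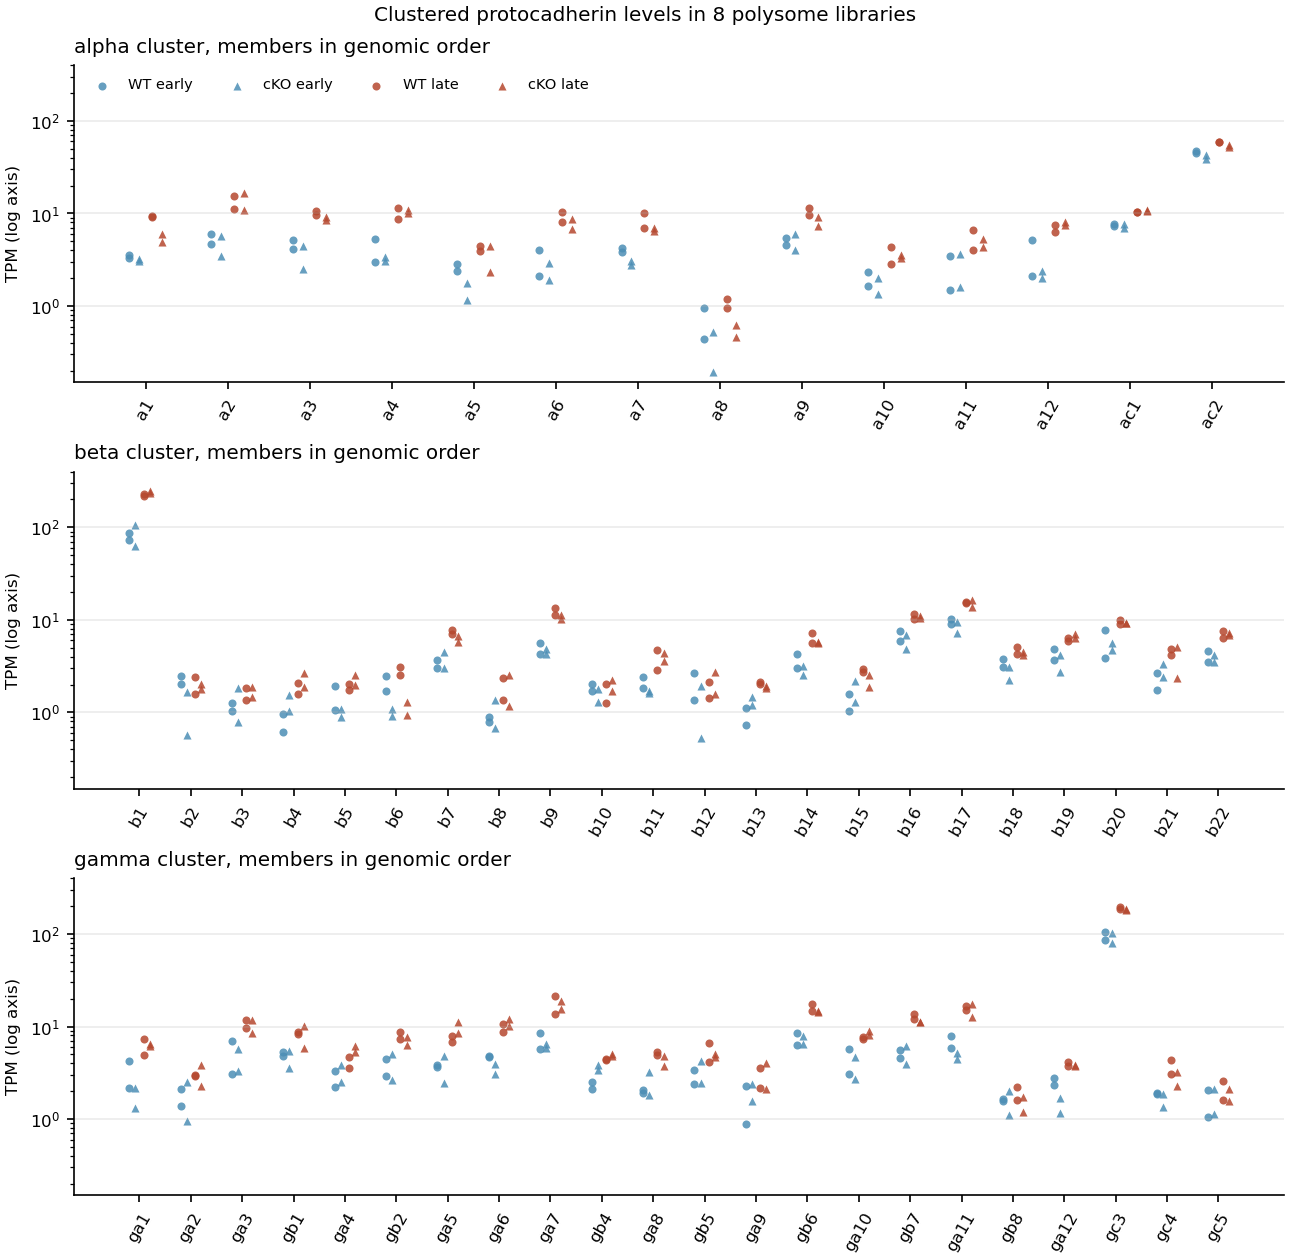
TPM as deposited (log axis) of the 58 clustered protocadherins in genomic order, with 1 point per library (circles WT, triangles cKO, blue early, red late). Pcdhb1, Pcdhgc3 and Pcdhac2 stand above all others, and most red points lie above the blue points of the same member.

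The order of the members was much alike in all libraries. Spearman's rho between libraries over the 58 members was 0.910 to 0.948 for replicates of a group, 0.902 to 0.918 for the early and late library of a lysate, and 0.875 to 0.947 for libraries of the same fraction and different genotype. Without the 3 most abundant members these ranges were 0.894 to 0.939, 0.885 to 0.904 and 0.853 to 0.938. The values share gene length and sequence composition, and they describe the bulk tissue: fewer cells of a type and less RNA per cell cannot be told apart.

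The clustered protocadherins were higher in late than in early polysomes. Averaged over the genotypes, 41 of the 57 tested members rose and 0 fell, that is 71.9% called higher, against a background of 34.3% of all 16097 genes tested called higher and 34.6% lower (limma on log2(scaled TPM + 1), Benjamini-Hochberg adjusted p below 0.05). On inferred reads, voom called 45 members higher, against 35.9% of all genes. The median change over the tested members was 0.61 on the log2 scale, while the median over all genes was -0.011. Called or not, 55 of 57 members had a change above 0, against 49.5% of all genes. A gain here means a larger share of the late library, not more RNA in absolute terms. Summed TPM of all members was 456 and 369 early and 827 and 858 late in WT, and 446 and 324 early and 833 and 824 late in cKO. No late library overlapped an early one. Late over early was 2.14 ± 0.356 on TPM as deposited and 1.96 ± 0.274 on scaled TPM (SD, n = 4 lysates).

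All alpha members tested rose, 11 of 11, with a median of 0.84. Pcdha6 changed by 1.27 (SE 0.20, adjusted p = 0.000514), and its TPM went from 3.08 ± 1.39 to 9.17 ± 1.59 in WT and from 2.41 ± 0.707 to 7.78 ± 1.32 in cKO (SD, n = 2 each). Pcdha2 (1.19), Pcdha4 (1.18), Pcdha12 (1.07) and Pcdha3 (0.97) followed, then Pcdha7 (0.84), Pcdha1 (0.82), Pcdha11 (0.72) and Pcdha9 (0.68). Pcdha5 (0.57) and Pcdha10 (0.59) had the smallest changes of the subfamily. Summed alpha TPM was 27.1 to 47.2 in early and 79.7 to 93.4 in late libraries.

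Of the beta members 11 of 22 were called higher, and 21 of 22 had a change above 0, with a median of 0.50. Pcdhb1 had the largest change of any member on the log2(scaled TPM + 1) scale, 1.39 (SE 0.14, adjusted p = 5.85e-05), or 2.77 times as much TPM in late polysomes of WT and 2.86 times in cKO. The order depends on the scale. As ratios of mean TPM, Pcdha6 had 2.97 in WT and 3.22 in cKO, and in cKO Pcdhga1 had 3.63 and Pcdha12 had 3.55. On inferred reads, voom gave 1.54 for Pcdha6 and 1.39 for Pcdhb1. Pcdhb9 was next at 1.03 (SE 0.12, adjusted p = 0.00012). It had 5.60 and 4.29 TPM early and 13.5 and 11.4 late in WT, and 4.89 and 4.25 early and 10.1 and 11.4 late in cKO, without overlap between fractions. Pcdhb7 (0.68), Pcdhb11 (0.67), Pcdhb14 (0.64), Pcdhb17 (0.61), Pcdhb20 (0.61), Pcdhb16 (0.60), Pcdhb22 (0.60), Pcdhb19 (0.53) and Pcdhb4 (0.53) also passed. The other 11 beta members did not, from Pcdhb10 at -0.025 (SE 0.18, adjusted p = 0.91) and Pcdhb2 at 0.11 to Pcdhb8 at 0.48. Without Pcdhb1 the summed beta TPM as deposited was 1.75 ± 0.224 times as high in late as in early polysomes (SD, n = 4 lysates). With it the ratio was 2.41 ± 0.438. On scaled TPM these ratios were 1.61 ± 0.162 and 2.22 ± 0.341.

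Gamma A members rose in 10 of 12 cases, with a median of 0.86. Pcdhga11 changed by 1.17 (SE 0.13, adjusted p = 8.79e-05), with 7.87 and 5.86 TPM early and 14.9 and 16.7 late in WT, and 5.18 and 4.48 early and 12.7 and 17.4 late in cKO. The fractions did not overlap. Pcdhga7 (1.16), Pcdhga6 (1.06), Pcdhga1 (1.02), Pcdhga3 (0.94) and Pcdhga5 (0.94) changed to a like extent. Pcdhga10 (0.77), Pcdhga8 (0.73), Pcdhga12 (0.65) and Pcdhga4 (0.47) also passed, and Pcdhga2 (0.50) and Pcdhga9 (0.45) did not pass the test. Of the gamma B members 5 of 7 rose, with Pcdhgb7 at 1.00 (SE 0.14, adjusted p = 0.000288) and Pcdhgb6 at 0.88 foremost, followed by Pcdhgb2 (0.77), Pcdhgb1 (0.57) and Pcdhgb4 (0.45). Pcdhgb5, at 0.49 (SE 0.19, adjusted p = 0.051), did not pass. Pcdhgb8 had a change of -0.018 (SE 0.20, adjusted p = 0.941), with 1.09 to 2.02 TPM in early and 1.19 to 2.20 in late libraries, which overlapped throughout.

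Among the C-type members 4 of 5 rose, and their changes were unequal. Pcdhgc3 changed by 0.90 (SE 0.089, adjusted p = 5.09e-05). Pcdhgc4, an isoform required for neuronal survival, changed by 0.52 (SE 0.17, adjusted p = 0.0262). The changes of Pcdhac1, at 0.36 (SE 0.097), and Pcdhac2, at 0.26 (SE 0.065), were the smallest of all members that passed. Pcdhgc5 had 0.13 (SE 0.23, adjusted p = 0.623). Pcdhgc3 and Pcdhac2 are both abundant, and the ratio of their TPM was 1.94 to 2.36 in early and 3.19 to 3.53 in late libraries, so it was higher in late polysomes in 4 of 4 lysates.

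**Figure D2:**
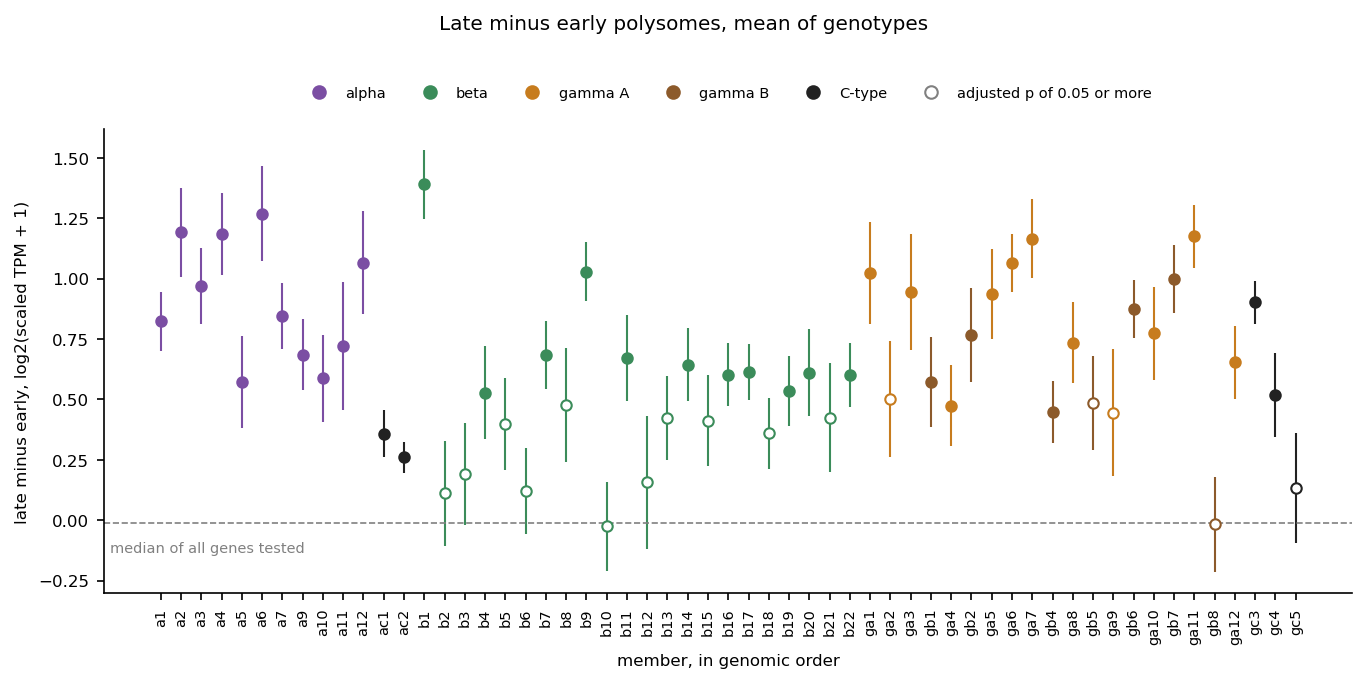
Late minus early difference in log2(scaled TPM + 1), averaged over the genotypes, for the 57 tested members in genomic order; bars are the standard error from limma, filled points have an adjusted p below 0.05, and the dashed line is the median of all genes tested. The 41 filled points are all positive, with Pcdhb1 highest at 1.39.

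The members that missed the threshold were low ones. The 16 of them had mean levels of 1.39 to 4.13 TPM, with a median of 1.78, and the 41 that passed had 1.54 to 157 TPM, with a median of 6.04. Across the 57 members the change correlated with mean TPM (Spearman's rho 0.68 on the log2 TPM scale, where adding 1 understates the change of low genes, and 0.49 for changes from inferred reads). Both are descriptions across genes of the same libraries. A part of depth or of the added constant in the missed calls was not tested.

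The direction was shared by the lysates. In 45 of 57 members late was above early in 4 of 4 lysates, and in 0 it was below in all 4, while 38.2% and 37.8% of all genes tested had these patterns. All 4 late libraries were above all 4 early libraries for 38 members, against 31.5% of all genes. The median change over members was 0.52 and 0.71 in the WT lysates and 0.51 and 0.85 in the cKO lysates. The WT and cKO contrasts came from the fit of all 8 libraries, which share an estimate of the spread, so they are not independent tests. Within WT 26 members rose and 0 fell, against 27.1% of all genes called higher. The median was 0.61. This count was 14 without WT late replicate 1, 15 without WT late replicate 2 and 14 without WT early replicate 2, the library with the conflicting tag. Within cKO 28 members rose and 0 fell, against 28.9% of all genes, with a median of 0.64. Leaving out 1 library at a time, the cKO median ranged from 0.47 to 0.83. Of the members called, 21 were called in both genotypes, 5 in WT and not cKO, and 7 in cKO and not WT. These last sets are not differences between genotypes, which were tested as an interaction and are given with the other comparisons of genotype. The share of all genes called in both genotypes, or in a single genotype, was not counted, so these counts have no background beside them. With early and late libraries paired by lysate, the average over genotypes lost Pcdhga4 (adjusted p = 0.058), and the small changes of Pcdhac2 no longer passed in WT (adjusted p = 0.0746) or cKO (adjusted p = 0.0686), nor that of Pcdhac1 in cKO (adjusted p = 0.0678).

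Coding sequence of these genes is long, 2316 to 3018 nt with a median of 2790 in the GENCODE annotation for the 57 members matched. The 1320 other tested genes with a coding length in that range had a median late minus early change of 0.42, with quartiles of 0.089 and 0.72, and 61.1% of them were called higher. The part of coding length in the members' shift was not tested. Marker genes of the tissue's cell types differed between the fractions too. Summed TPM of 7 mature olfactory neuron markers was 9415 to 11494 in early and 6107 to 7332 in late libraries, although 4 of these markers rose and 3 fell. For 6 sustentacular (supporting) cell markers the sums were 5797 to 6581 and 8494 to 10619, for 5 fibroblast markers 7802 to 13105 and 14146 to 18489, for 4 gland markers 1072 to 2060 and 3568 to 4294, and for 6 ensheathing glia markers 590 to 841 and 602 to 855. Of the glia markers 3 rose and 1 fell, and of the sustentacular markers 5 rose and 1 fell. The sums were 2790 to 3183 and 2717 to 3138 for 6 immature neuron markers, 242 to 288 and 361 to 390 for 6 globose basal and progenitor markers, 38.6 to 57.5 and 80.1 to 92.8 for 4 horizontal basal cell markers, 90.5 to 120 and 140 to 159 for 4 endothelial markers, and 218 to 277 and 200 to 259 for 5 immune markers. These sums are led by the most abundant genes: of the immature neuron markers 3 rose and 3 fell (-1.49 to 1.05), and of the immune markers 1 rose and 2 fell. The fibroblast, gland, globose basal, horizontal basal and endothelial lists, of 5, 4, 6, 4 and 4 markers, had 4, 4, 4, 3 and 3 that rose and 0 that fell. All these counts are of markers called, beside 34.3% of all genes tested called higher and 34.6% called lower. None of the markers was at 0 in all libraries, so the markers of the olfactory epithelium were present beside those of connective tissue. The part of cell types in the members' shift was not tested.

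The constant exons, chosen for mention after their values were seen, give a second reading of the alpha and gamma clusters. Late minus early was 0.56 for PcdhaCon (SE 0.066, adjusted p = 0.000116) and 0.61 for PcdhgCon (SE 0.090, adjusted p = 0.000406). PcdhaCon had 95.5 and 88.6 TPM early and 147 and 147 late in WT, and 71.7 and 64.0 early and 104 and 116 late in cKO. The late libraries were all above the early ones, and the cKO libraries were below the WT libraries of the same fraction. PcdhgCon had 157 and 131 TPM early and 242 and 240 late in WT, and 149 and 120 early and 224 and 211 late in cKO. Its fractions did not overlap, while its genotypes overlapped in early polysomes. In late polysomes both cKO libraries were below both WT libraries.

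Summed over the cluster, variable exons had 1.15 to 1.26 times the TPM of the constant exons of the gamma cluster in early libraries and 1.40 to 1.61 times in late libraries. The ranges did not overlap. For the alpha cluster the ratio in WT was 1.06 and 0.986 early and 1.09 and 1.11 late, and in cKO it was 1.24 and 1.15 early and 1.37 and 1.28 late. It was thus higher in each cKO library than in each WT library, and within each lysate it was higher in late than in early polysomes. No test was made of these ratios.

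**Figure D3:**
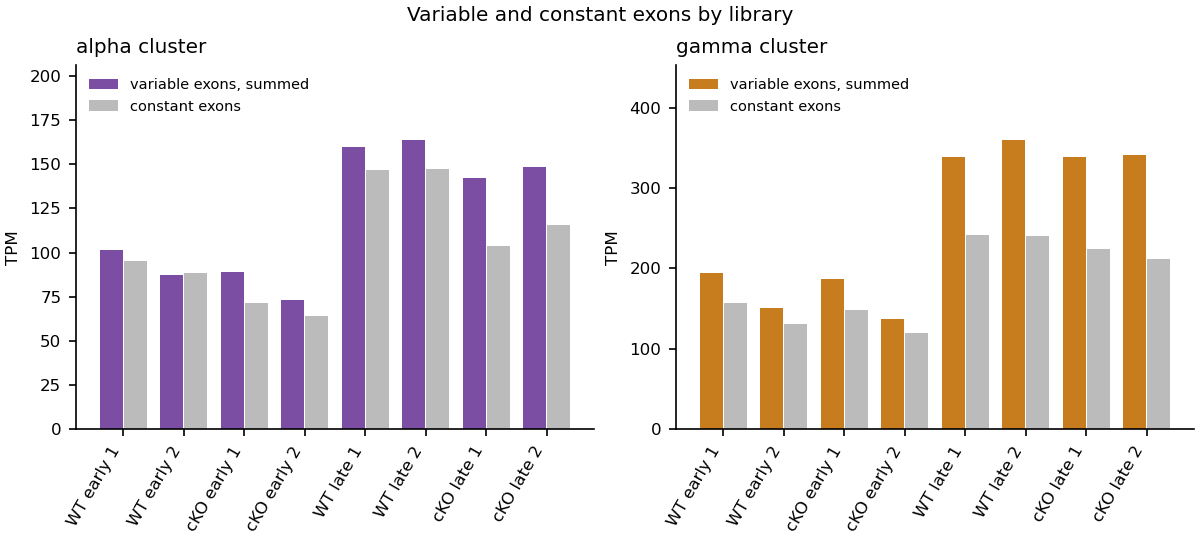
TPM as deposited in each library, summed over the variable exons of the alpha (left) and gamma (right) clusters (coloured bars), beside the row of constant exons of the cluster (gray bars). Late libraries are higher for each, and in the gamma cluster the variable exons exceed the constant exons by more in late than in early libraries. In the alpha cluster the ratio of variable to constant exons is also higher in the late library of each lysate.

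No clustered protocadherin passed the threshold between cKO and WT. For Mex3a itself, the check of the labels, cKO minus WT on the log2 scale was -2.55 in early polysomes (adjusted p = 0.00459), -2.80 in late polysomes (adjusted p = 0.00282) and -2.67 over lysate means (adjusted p = 0.0227). This call for Mex3a was lost in early polysomes without WT early replicate 1 (adjusted p = 0.0807) or 2 (adjusted p = 0.0501), where the difference was -2.69 and -2.42, and in late polysomes without WT late replicate 1 (adjusted p = 0.0902) or 2 (adjusted p = 0.0946), where it was -2.80 and -2.79. With limma 0 of 57 members were called in early polysomes, where 0.0435% of all genes were, 0 in late polysomes, where 0.0124% were, and 0 over lysate means, where 0.00621% were. At an unadjusted p below 0.05 there were 3, 2 and 2 members, against 6.64%, 9.36% and 11.3% of all genes. In each of these comparisons the small count moved down or up depending on the library left out, and not every move is listed here. The early count was 6 without WT early replicate 2, whose labels conflict, and 1 without WT early replicate 1 or either WT late library. The late count was 1 without WT late replicate 2. The count over lysate means was 1 without either WT lysate or cKO lysate 1. The test on inferred reads with voom also called 0 members in each, where it called 0.14%, 0.115% and 0.407% of all genes. It gave 4, 2 and 2 members at an unadjusted p below 0.05, against 7.79%, 9.19% and 15.5% of all genes. The median difference of cKO from WT over the tested members was -0.048 in early and -0.018 in late polysomes and -0.045 over lysate means. Leaving out 1 library at a time, it ranged from -0.27 to 0.096 in early and from -0.061 to 0.0062 in late polysomes. By limma 20, 23 and 20 of 57 members were above 0 early, late and over lysate means, against 51.2%, 49.7% and 50.4% of all genes. By voom 13 of 57 were above 0 over lysate means, against 49.7%. Subfamilies differed: alpha had 2, 3 and 1 of 11 by limma, but gamma B had 5 of 7 early and gamma A 8 of 12 late. These signs were not tested. In early polysomes both cKO libraries were below both WT libraries for 9 members and above for 3, against 17.6% and 19.5% of all genes. In late polysomes the counts were 10 and 8, against 20.1% and 20.5%.

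For the abundant members the difference was small beside its error. Pcdhb1 had a cKO minus WT difference of 0.080 (SE 0.20) in early and 0.15 (SE 0.20) in late polysomes. For Pcdhgc3 the values were -0.016 and -0.018 (SE 0.13 each). Pcdhac2 was below WT in each cKO library of its fraction, with differences of -0.11 and -0.11 (SE 0.092 each, adjusted p = 0.872 and 0.733).

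Pcdhb6 had the most negative difference in late polysomes and over lysate means. It had 2.49 and 1.71 TPM early and 2.55 and 3.06 late in WT, and 0.907 and 1.08 early and 0.942 and 1.28 late in cKO. Every cKO library was below every WT library. Early, the difference was -0.60 (SE 0.25, adjusted p = 0.74). Late, it was -0.82 (SE 0.25, adjusted p = 0.408), and over lysate means -0.71 (SE 0.19, adjusted p = 0.367), from a mean of 17.5 reads per library. Pcdha1 had 9.31 and 9.12 TPM in WT late and 5.95 and 4.97 in cKO late libraries, without overlap, and a difference of -0.63 (SE 0.17, unadjusted p = 0.00618, adjusted p = 0.372). In early polysomes it had 3.28 and 3.57 TPM in WT and 3.26 and 3.05 in cKO, close together, with a difference of -0.048. The largest positive differences were those of Pcdhgb4, at 0.52 (SE 0.18, adjusted p = 0.71) in early polysomes and 0.35 over lysate means, and of Pcdhga4 in late polysomes, at 0.44 (SE 0.24, adjusted p = 0.607). The most negative early difference was that of Pcdhb2, at -0.64 (SE 0.31, adjusted p = 0.779), with 2.45 and 2.03 TPM in WT and 1.67 and 0.575 in cKO libraries. None of these passed the adjustment over all genes.

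**Figure D4:**
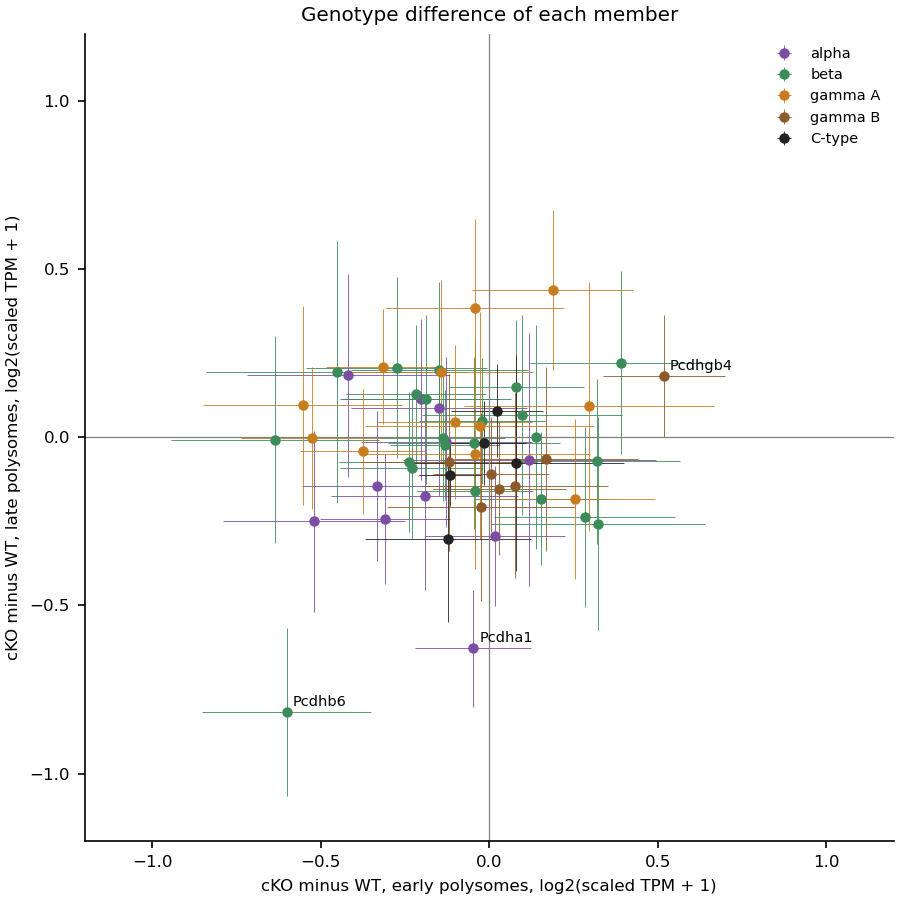
Difference of cKO from WT in log2(scaled TPM + 1) for the 57 tested members, in early (horizontal) and late (vertical) polysomes, with standard errors from limma as bars and colours for the subfamilies. Most points lie near 0, with Pcdhb6 low on both axes (-0.60 and -0.82), and none passed the adjusted threshold.

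The test of whether late minus early differed between the genotypes also called 0 members, where 0.00621% of all genes were called by limma. At an unadjusted p below 0.05 there was 1 member, Pcdha1, with a difference of -0.58 (SE 0.24, adjusted p = 1), against 2.85% of all genes. That count was 2 without WT early replicate 2 or cKO late replicate 1, 3 without cKO early replicate 1 and 0 without any other library. By voom 0 members passed at either level, against 0% and 2.47% of all genes. The largest positive value was that of Pcdhga1, at 0.65 (SE 0.42). The median over members was 0.056 and ranged from -0.12 to 0.23 when 1 library was left out. The alpha constant exons had cKO minus WT differences of -0.38 in early (adjusted p = 0.62) and -0.38 in late polysomes (adjusted p = 0.346). Over lysate means the difference was -0.38 (SE 0.063, adjusted p = 0.239), and it passed with the replicate number as a block (adjusted p = 0.0446) and with voom (adjusted p = 0.0482). The gamma constant exons had -0.078 (SE 0.095) over lysate means.

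Genes that act with the clustered protocadherins were examined by lists chosen with earlier results of these data known. Of the regulators of promoter choice and chromatin 14 of 16 rose in late polysomes and 0 fell, with a median of 0.52. They included Dnmt1 (0.83), the maintenance DNA methyltransferase, Rest (0.75), a repressor of neuronal genes, the cohesin subunit Smc3 (0.73) and Setdb1 (0.72), a histone H3 lysine methyltransferase. Smchd1, a repressor of the clusters, had -0.0092 (SE 0.084). Of 22 intracellular partners and processing enzymes 11 rose and 9 fell, with a median of 0.021. The gamma-secretase subunits, which cleave protocadherin tails, were divided between the directions: Ncstn rose by 1.19 and Psenen fell (-1.36). The kinase Ptk2b, a binding partner of the cytoplasmic tails, rose by 1.14, and Brk1, of the actin-regulating WAVE complex, fell (-1.24). Of the non-clustered protocadherins 9 of 11 rose and 0 fell, with a median of 0.68, led by Pcdh1 (1.32), Pcdh19 (1.11), Pcdh8 (1.06) and Pcdh10 (1.01). Of the classical cadherins and catenins 9 of 12 rose and 0 fell, with a median of 0.67, led by Jup (1.18), Cdh1 (1.16), Ctnnb1 (1.06) and Ctnna1 (1.04). The background of 34.3% higher and 34.6% lower applies to each list. The clustered protocadherins thus shared their direction with other cadherin-family genes, and no difference between the lists was tested. None of the 4 lists had a gene that passed in the comparison of genotypes by limma, out of 16, 22, 11 and 12 tested, in the order given. An unadjusted p below 0.05 was found for 1, 4, 3 and 2 of them in early polysomes, against 6.64% of all genes, and for 1, 5, 4 and 2 in late polysomes, against 9.36%. Each list other than the regulators thus had a larger share than all genes, among them the non-clustered protocadherins with 3 of 11 and 4 of 11. In cKO minus WT, 2 and 1 of these 11 were above 0 in early and late polysomes. For the cadherins and catenins it was 1 and 2 of 12, and for the regulators 2 and 3 of 16. Over all genes it was 51.2% and 49.7%, and for the clustered protocadherins 20 and 23 of 57. No test of the lists was made.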

How the data were processed

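RNA of early and late polysomes was sequenced in 8 libraries, 2 per group, after stranded low-input total RNA library preparation, per the labels' protocols. The authors deposited 1 table of TPM for 21765 gene symbols, each column summing to 1000000. The submitters' processing notes name FastQC, cutadapt, STAR, DESeq2 and the build mm10, without roles or versions; the counting program, annotation and treatment of multiply matching reads are not given in the sources used here. Groups came from sample titles.

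TPM was scaled by median ratios (factors 0.931 to 1.06). The 16097 genes whose deposited TPM averaged 1 or more were tested on log2(scaled TPM + 1) with limma 3.58.1 in R 4.3.3, with empirical Bayes moderation, a mean-variance trend and all 4 groups in the fit. For genotype, lysate averages of early and late values were compared as well (2 against 2). P-values were two-sided and Benjamini-Hochberg adjusted over all genes, with a threshold of 0.05. Fold changes on this scale understate the change of low genes. Whole reads were inferred from TPM steps for 19783 of 19783 genes above 0 in at least 2 libraries (tolerance 0.001), and 1009 genes were above 0 in 1 library only. They served a voom alternative (15707 genes with a mean of at least 10 reads). On simulated libraries 200 genes were changed 3-fold, drawn from genes with a higher mean of reads than many members have. Variation between replicates beyond counting was set the same for every gene. In late against early averaged over genotypes limma recovered 200, with 19 false calls among 16034 genes tested. In early polysomes between genotypes it recovered 197, with 16 among 16060. These recoveries do not measure detection for low members such as Pcdhb6, with a mean of 17.5 reads.

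Library names place early and late libraries of a number in the same lysate. Their deviations from group means correlated at 0.0863 in WT and 0.0503 in cKO. Between genotypes a number marks no stated batch. The corresponding correlation was 0.331 for early libraries and 0.142 for late ones.

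Named members were all that passed a test, the 3 highest of each subfamily, the C-type members and the extremes of each comparison with a mean of at least 10 reads. From the lists at most 4 genes that passed, with the largest changes, were named; others were named after their values were seen. Members and lists were chosen with earlier results of these data known. Alternatives were other pseudocounts, filters and scalings, no trend, voom, leaving out each library, only the libraries compared, and replicate blocks. Coding lengths and exons came from GENCODE on GRCm38. Figures were drawn with matplotlib 3.10.9.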

Additional observations from a re-analysis of the deposited data

How the results depend on the processing

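The 41 members higher in late polysomes on average were higher under every alternative run, and 34 of them were called in every alternative that tested them. Pcdha5, Pcdha10, Pcdha11, Pcdhb4, Pcdhga4, Pcdhgb1 and Pcdhgc4 lost the call in at least 1. The count was 40 without a filter, 29 of 29 tested at a mean of at least 5 TPM, 45 with TPM as deposited, 49 with quantile normalization, 46 without the trend, 45 with voom, 41 with the replicate block by lysate, and 34 to 44 leaving out 1 library. The median change was 0.78 with a pseudocount of 0.1, 0.87 at a mean of at least 5 TPM, 0.78 at a mean of at least 0.1 TPM with a pseudocount of 0.1, and 0.78 with voom. In WT these settings gave 0.82, 0.85, 0.81 and 0.84, and in cKO the filter at 5 TPM gave 0.90. Leaving out 1 library, the WT count ranged from 14 to 28 and its median from 0.47 to 0.74, and the cKO count from 17 to 30. With the replicate block the counts were 28 in WT and 29 in cKO. Among the single genes followed through the alternatives, the block changed no call other than those given with the results. Pcdhb10, at -0.025 on average, changed sign with TPM as deposited (0.047), with quantile normalization (0.14) and leaving out 1 library at a time (-0.13 to 0.075). Pcdhgb8 in cKO changed sign with quantile normalization (0.11) and leaving out 1 library at a time (-0.37 to 0.15). For these the cause was not tested. The counts of members called between genotypes and for the interaction were 0 in all alternatives run. Leaving out 1 of 2 libraries leaves a lone sample, assumed to vary like the other groups. How detection depends on the reads of a member was not tested.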
